A study of Drosophila melanogaster with 9 samples.

Results

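The larvae heterozygous for the Atg6 mutation are described here against the midpoint of the homozygotes and the wild type, to sort the changed genes by whether 1 mutant copy leaves the RNA at the wild-type level, moves it part of the way or moves it all the way. The heterozygotes are 3 of the 9 RNA libraries; they carry 1 copy of the mutant allele Atg6D and are labelled Atg6D/+ and Atg6-/+. The other genotypes are the homozygote with 2 copies, labelled Atg6D/Atg6D and Atg6-/- (3 libraries), and the Atg6 wild type (3 libraries), and the labels give all 3 genotypes the w118 background. Each library holds RNA from whole wandering larvae of the third instar raised on standard food at 25 °C. The labels give no drug or other treatment, and they do not say whether the genotypes were littermates, how many larvae went into a library, or whether the replicates came from separate cultures, so p-values measure only the spread between these libraries.

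Atg6, the Drosophila counterpart of Beclin 1, belongs to the class III phosphatidylinositol 3-kinase complex that starts autophagosome formation and also acts in endosome traffic. When a gene loses a working copy and nothing compensates, its RNA is expected to follow the number of copies, which on a linear scale places the heterozygote midway between the homozygotes. A downstream gene can instead respond only when both copies are lost (recessive), in steps with the number of copies (dose-proportional), or as fully with 1 mutant copy as with 2 (dominant).

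The midpoint was taken on 2 scales, because they give different answers. On the FPKM scale (fragments per kilobase of transcript, scaled to the size of the library) it is the arithmetic mean of the homozygote and wild-type means, which is where a strict copy-number effect falls. On log2(FPKM + 1) it lies nearer the lower genotype, and it is where equal fold steps fall. The position of the heterozygote is 0 at the wild-type mean, 0.5 at the midpoint and 1 at the homozygote mean, with a 95% interval from the same fit. The pseudocount of 1 makes the log2 differences of weak genes come out too small. A locus was called at a limma adjusted p under 0.05 over the 10887 loci tested. Changed loci were then sorted as recessive (heterozygote off the midpoint, towards or beyond the wild type), dominant (off the midpoint, towards or beyond the homozygote) or dose-proportional (not off the midpoint, called against both homozygote and wild type, and between them).

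Depth in reads is unknown, since FPKM does not hold it; relative depth ran from 0.787 to 1.28. The 10 most abundant loci held 23.4 to 23.8% of the FPKM sum in heterozygotes, 10.8 to 16.7% in homozygotes and 19.0 to 24.2% in wild types. The libraries also differed in tissue-specific RNA. Summed FPKM of the 21 muscle loci was 29051, 19545 and 19101 in the heterozygotes, 37417, 14093 and 31322 in the homozygotes and 10359, 25635 and 12523 in the wild types. That of the 40 testis loci was 710, 1036 and 1109 in the heterozygotes, 551, 432 and 554 in the homozygotes and 1783, 813 and 979 in the wild types. In whole larvae, fewer cells of a type and less RNA per cell cannot be told apart. Of 23 marker genes of the larval tissues, 18 were at 1 FPKM or more in every library. Lsp1beta, an abundant storage protein, is listed at 0 in 1 heterozygote and 1 homozygote library, so an exact 0 in these files can be a missing estimate.

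Few loci were called off the midpoint. On log2, 109 loci (1.00%) were, of which 14 lay above it (0.129%) and 95 below it (0.873%). On FPKM, 51 loci (0.468%) were, with 7 above (0.0643%) and 44 below (0.404%). At an unadjusted p under 0.05 the log2 counts were 294 above (2.70%) and 700 below (6.43%). In the same fit 2396 loci (22.0%) differed between homozygote and wild type on log2, with 1343 higher (12.3%) and 1053 lower (9.67%), and 1435 (13.2%) did on FPKM. The homozygote differed from the heterozygote at 838 loci (7.70%), and the heterozygote from the wild type at 23 loci (0.211%).

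On log2 the sort gave 101 recessive, 8 dose-proportional and 5 dominant loci, and left 2282 of the 2396 (95.2%) unsorted. On FPKM it gave 47 recessive, 9 dose-proportional and 1 dominant locus, and left 1378 unsorted. A further 3 loci on each scale were not called between homozygote and wild type but had the heterozygote called off the midpoint. Of the 101 recessive loci on log2, 38 were recessive on both scales. The counts depend on every heterozygote library: the 109 log2 calls became 13, 13 and 27 without heterozygote 1, 2 and 3. They became 61 without homozygote 3, and 68 and 63 without wild types 1 and 3. The 51 FPKM calls became 8, 5 and 4 without heterozygote 1, 2 and 3, 116 without homozygote 1, and 11, 21 and 9 without wild types 1, 2 and 3.

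**Figure D1:**
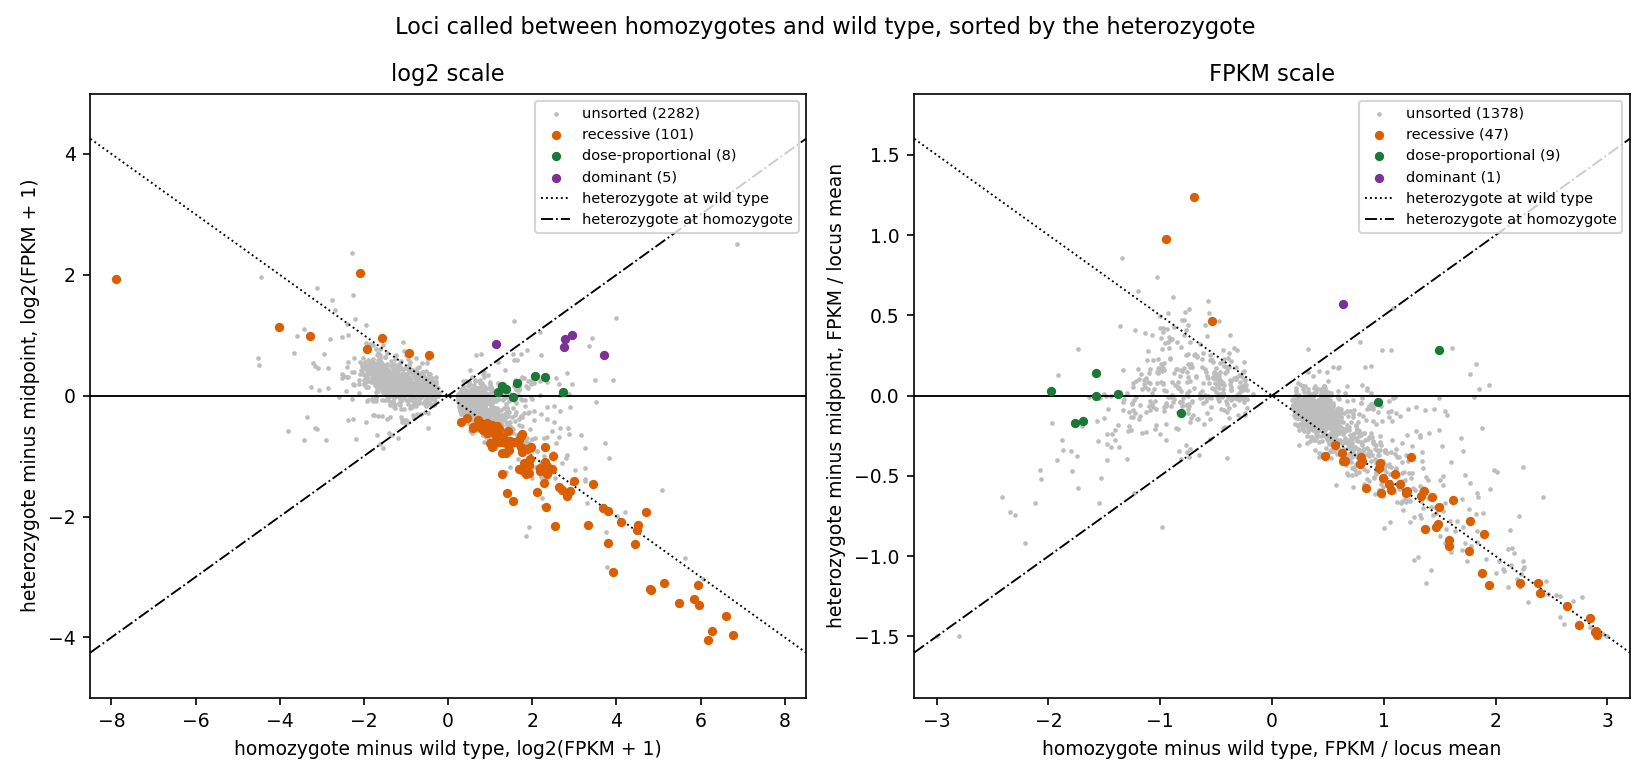
Each point is a locus called between homozygote and wild type, on log2(FPKM + 1) at left and on FPKM divided by the locus mean at right. The horizontal axis is homozygote minus wild type and the vertical axis heterozygote minus midpoint; the dotted line is a heterozygote at wild type, the dash-dotted line one at homozygote and the horizontal line one at the midpoint. The recessive loci (101 at left, 47 at right) lie mostly along the dotted line on the side where the homozygote is higher.

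Atg6 itself was dose-proportional on FPKM. Its FPKM was 7.58, 7.98 and 8.89 in the heterozygotes, 0.0270, 0 and 0.0563 in the homozygotes and 16.1, 14.3 and 17.0 in the wild types. All 3 heterozygotes lay between the other genotypes, with no overlap. The heterozygote mean was 103% of the arithmetic midpoint of 7.92 FPKM (difference 0.233, SE 0.652; limma adjusted p = 1) and its position 0.49 (interval 0.39 to 0.58). On log2 the same values lay 1.14 (SE 0.08, limma adjusted p = 0.00219) above a log2 midpoint of 3.15 FPKM, at position 0.22 (0.17 to 0.27), and the sort calls the gene recessive. That log2 call held without each of the 9 libraries, whereas the FPKM sort, which needs the call between heterozygote and wild type (limma adjusted p = 0.0253), was kept only without homozygote 2 or wild type 2. The same 9 values thus stand at the midpoint in amount and above it in fold steps, and the FPKM scale is the one on which copy number is read here.

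The locus lies on chromosome arm 3R from 24049180 to 24053596 (dm6), and the files give CG5991 (Pisd, a phosphatidylserine decarboxylase) the same bounds. CG5991 had 20.9, 19.7 and 21.5 FPKM in the heterozygotes, 40.5, 34.6 and 35.1 FPKM in the homozygotes and 11.5, 12.6 and 12.0 FPKM in the wild types. The 3 genotypes did not overlap. It was dose-proportional on log2, at position 0.48 (0.37 to 0.59). On FPKM it was unsorted, at 84.8% of the midpoint and position 0.35 (0.20 to 0.49), below the midpoint by that interval (limma adjusted p = 0.523). The neighbouring CG5986, on the same arm, was dose-proportional on log2 as well, at position 0.55 (0.43 to 0.67), and unsorted on FPKM, with means of 57.4 ± 0.886, 83.7 ± 2.86 and 36.4 ± 1.48 FPKM (SD, n = 3 each) in heterozygote, homozygote and wild type. Both log2 sorts were kept only without homozygote 1 or 2. How reads were divided between loci that overlap is not given in the sources used here. The next locus, CG6000/CR44097, was not off the midpoint (log2 difference −0.17, limma adjusted p = 0.957). The partners of Atg6 in the kinase complex (Uvrag, Atg14, ird1 and the merged locus CG30184/Pi3K59F) had heterozygote means of 77.8 to 90.9% of the arithmetic midpoint, and none of the 4 was called off it by limma on either scale (2 below at an unadjusted p under 0.05 on log2, against 6.43% of all loci). None of 23 other autophagy loci was called or reached that unadjusted p.

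**Figure D2:**
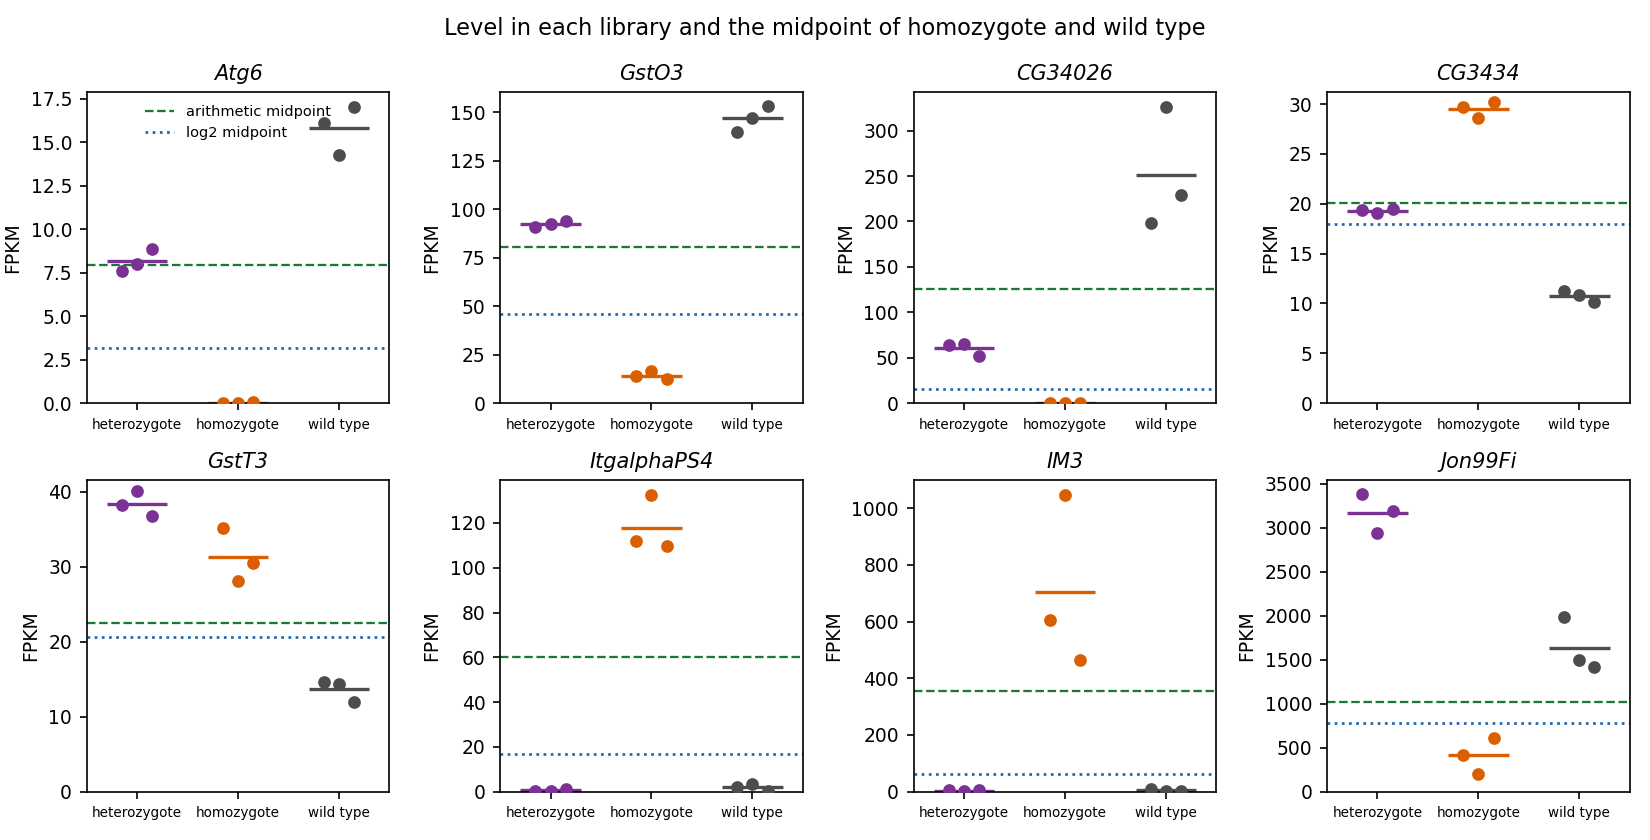
FPKM of 8 genes in each library (points, with the mean as a bar), by genotype on linear axes from 0. The dashed line is the arithmetic midpoint of homozygote and wild type and the dotted line the log2 midpoint; Atg6, GstO3 and CG3434 heterozygotes sit near the dashed line, ItgalphaPS4 and IM3 at the wild type, and GstT3 and Jon99Fi above both other genotypes.

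Falls that followed the number of copies were seen on the FPKM scale, where 7 of the 9 dose-proportional loci were lower in homozygotes. Besides Atg6 these were GstO3 (an omega-class glutathione transferase), CG3394 (Fatp3, of the fatty acid transport proteins), Oat (ornithine aminotransferase), Dscam4 (a cell adhesion protein), CG6812 (Sfxn2, a sideroflexin of mitochondria) and CG14567. The sort asks that a call off the midpoint be absent, which does not place a locus at it. GstO3 had 91.1, 92.2 and 93.9 FPKM in the heterozygotes, 13.8, 16.6 and 12.2 FPKM in the homozygotes and 140, 147 and 153 FPKM in the wild types. No libraries of different genotypes overlapped. Its heterozygote mean was 115% of the arithmetic midpoint (position 0.41, short of the midpoint by its interval of 0.34 to 0.48; limma adjusted p = 0.400). On log2 it lay 0.98 (SE 0.09, limma adjusted p = 0.00667) above the midpoint and was sorted as recessive, a call lost without heterozygote 1 or 2.

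CG3394 averaged 52.9 ± 4.26 FPKM in heterozygotes, 16.1 ± 2.79 FPKM in homozygotes and 88.5 ± 5.98 FPKM in wild types (SD, n = 3 each), which put the heterozygote at 101% of the midpoint. Oat averaged 105 ± 14.9 FPKM in heterozygotes, 24.2 ± 4.49 FPKM in homozygotes and 221 ± 22.96 FPKM in wild types, at 85.3% of the midpoint. Dscam4 was at 99.6%, CG6812 at 89.4% and CG14567 at 83.8%. The FPKM position of CG14567, 0.60 with an interval of 0.502 to 0.694, was past the midpoint by that interval (limma adjusted p = 0.553). Dscam4 and CG6812 were outside the rule for named genes and are given because the class is small. The class held 0 loci without any of the 3 heterozygotes, wild type 3 or homozygote 3, and 3 without wild type 1.

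Rises in steps with the mutant copies were seen mainly on log2, where all 8 dose-proportional loci were higher in homozygotes. They were mago (a core protein of the exon junction complex), CG3434, Mrp4 (an ABC transporter), CG13822 (GILT3, of the lysosomal thiol reductase family), Pa1, Su(Ste):CR42422, CG5986 and CG5991; Pa1 was outside the rule for named genes. CG3434 was dose-proportional on both scales. Its FPKM was 19.4, 19.1 and 19.5 in the heterozygotes, 29.7, 28.6 and 30.2 in the homozygotes and 11.2, 10.8 and 10.2 in the wild types. The genotypes were separate and the heterozygotes lay within 0.5 FPKM of each other. The position of CG3434 was 0.57 (0.48 to 0.67) on log2 and 0.46 (0.36 to 0.56) on FPKM. The log2 sort of CG3434 held without each of the 9 libraries, and the FPKM sort only without homozygote 1 or 2.

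CG13822 had 15.5, 15.4 and 14.1 FPKM in the heterozygotes, 25.1, 31.6 and 26.7 FPKM in the homozygotes and 5.16, 4.49 and 4.78 FPKM in the wild types, again with no overlap. Its log2 position of 0.63 had an interval of 0.55 to 0.72, so that it lay above the log2 midpoint by its own interval, although the difference of 0.31 (SE 0.09) missed the threshold over all loci (limma adjusted p = 0.220). Mrp4 had 19.2, 14.9 and 15.6 FPKM in the heterozygotes, 47.7, 42.5 and 36.8 FPKM in the homozygotes and 4.88, 7.02 and 4.88 FPKM in the wild types. It was at 0.52 (0.40 to 0.64) on log2 and at 0.30 (0.14 to 0.45) on FPKM, below the arithmetic midpoint by that interval (limma adjusted p = 0.336). Mago was at 98.9% and Su(Ste):CR42422 at 98.5% of the arithmetic midpoint. Su(Ste) belongs to a repeat family on the Y chromosome, whose copies share reads, so its value is uncertain. The class held 3 loci without heterozygote 1, heterozygote 2, wild type 3 or homozygote 3, 4 without heterozygote 3 and 5 without wild type 1.

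The dominant class was small and consisted of rises. On log2 it held GstT3 (a theta-class glutathione transferase), pncr009:3L (a hairpin RNA, hpRNA:CR33940), CG32640, CG32641 and the long noncoding RNA CR42861; on FPKM it held GstT3. GstT3 had 38.3, 40.1 and 36.8 FPKM in the heterozygotes, 35.2, 28.2 and 30.6 FPKM in the homozygotes and 14.7, 14.4 and 12.0 FPKM in the wild types. All 3 heterozygotes were above all homozygotes and wild types. The heterozygote mean was 171% of the arithmetic midpoint (difference 15.9 FPKM, SE 1.81; limma adjusted p = 0.0265) and 0.86 above it on log2 (SE 0.09, limma adjusted p = 0.00885). Heterozygote and homozygote were not called apart (limma adjusted p = 0.153 on log2). The log2 call was lost without any of the 3 heterozygotes, and the FPKM call also without any of the 3 wild types.

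CG32641 had 7.54, 10.2 and 7.38 FPKM in the heterozygotes, 9.79, 13.8 and 12.2 FPKM in the homozygotes and 0.767, 0.487 and 0.797 FPKM in the wild types. Heterozygotes and homozygotes overlapped and both were above every wild type. CR42861 had 10.03, 13.6 and 12.9 FPKM in the heterozygotes, 18.1, 17.3 and 15.5 FPKM in the homozygotes and 2.17, 1.58 and 1.21 FPKM in the wild types. Both were at log2 position 0.84 (limma adjusted p = 0.0212 and 0.0248). Scale mattered for them too: CR42861 was dose-proportional on FPKM, at position 0.69 (0.55 to 0.84). The call of CG32641 was lost without any heterozygote, wild type 3 or homozygote 3, and that of CR42861 without any heterozygote, wild type 2, homozygote 2 or homozygote 3. The hairpin RNA pncr009:3L averaged 30.4 ± 2.57 FPKM in heterozygotes, 70.4 ± 7.41 FPKM in homozygotes and 4.45 ± 0.468 FPKM in wild types (SD, n = 3 each). It was above the log2 midpoint (position 0.68) and at 81.1% of the arithmetic midpoint, so its dominant sort holds for fold steps and not for amounts; the call was kept only without homozygote 1 or wild type 2. CG32640 and CG32641 have the same bounds in the files (X, 13159604 to 13189164, dm6), so how reads were divided between them is uncertain and they may not be separate observations. The X chromosome held 16.0% of the loci tested, 4 of the 5 dominant loci on log2 (CG32640 and CG32641 counted separately) and 11 of the 23 loci called between heterozygote and wild type. Other differences between the stocks and the mutation itself cannot be told apart in this design. The class held 0 loci without heterozygote 2 or 3, 1 without heterozygote 1 or homozygote 3, and 3 without homozygote 2 or any wild type.

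Most sorted loci were recessive, and most of those were rises. Of the 101 on log2, 93 were higher in homozygotes, with a median homozygote mean 3.72 times that of the wild type, and the heterozygote at a median of 35.7% of the arithmetic midpoint. The heterozygote libraries overlapped the wild types at 65 of the 93 and lay wholly below them at 26. The sort selects a heterozygote towards or beyond the wild type in these same libraries, so these counts largely follow from it. None of the 93 was called between heterozygote and wild type, which is near the share of 0.211% over all loci and also follows largely from the sort.

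ItgalphaPS4, an integrin alpha subunit of lamellocytes, the flat blood cells that encapsulate parasites, showed the pattern on both scales. Its FPKM was 0.494, 0.417 and 1.08 in the heterozygotes, 112, 132 and 110 in the homozygotes and 2.26, 3.24 and 0.341 in the wild types. The heterozygotes overlapped the wild types and were far below each homozygote. The heterozygote mean was 1.11% of the arithmetic midpoint (limma adjusted p = 0.00450) and 3.43 below it on log2 (SE 0.34, limma adjusted p = 0.00667). The log2 call was lost without heterozygote 1 or 2 and the FPKM call without heterozygote 2 or 3. The merged locus CG1208/glob3, which includes a globin, averaged 3.89 ± 0.401 FPKM in heterozygotes, 237 ± 19.8 FPKM in homozygotes and 8.57 ± 5.52 FPKM in wild types (SD, n = 3 each), at 3.17% of the midpoint. Its FPKM call (limma adjusted p = 0.00265) held without each of the 9 libraries, and its log2 call was lost without heterozygote 1 or 2.

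The tubulin betaTub60D had 40.4, 46.5 and 51.6 FPKM in the heterozygotes, 506, 534 and 481 FPKM in the homozygotes and 117, 56.3 and 96.5 FPKM in the wild types. The heterozygotes were below all wild types as well as all homozygotes, at 15.5% of the midpoint (limma adjusted p = 0.00265 on FPKM, held without each library). Its log2 position was −0.35 with an interval of −0.68 to −0.11, although heterozygote and wild type were not called apart (limma adjusted p = 0.4999). The tubulin alphaTub85E averaged 18.9 ± 4.39 FPKM in heterozygotes, 417 ± 82.7 FPKM in homozygotes and 17.7 ± 6.04 FPKM in wild types, at 8.68% of the midpoint. The log2 calls of both tubulins were lost without heterozygote 1 or 2. The integrin beta subunit mys was at 50.5%, with means of 58.0 ± 4.31, 173 ± 19.1 and 56.9 ± 3.87 FPKM in heterozygote, homozygote and wild type; its log2 call was lost without any heterozygote, and its FPKM call also without any wild type.

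CG43194 (hemo) and CG17760 kept their log2 calls without each of the 9 libraries. CG43194 had 2.19, 1.52 and 1.73 FPKM in the heterozygotes, 21.0, 22.0 and 18.0 FPKM in the homozygotes and 2.74, 1.71 and 2.35 FPKM in the wild types. CG17760 had 0.922, 1.21 and 1.35 FPKM in the heterozygotes, 19.6, 15.9 and 14.3 FPKM in the homozygotes and 1.299, 1.32 and 1.43 FPKM in the wild types. Both genes were 1.57 below the midpoint on log2 (SE 0.13 and 0.12, limma adjusted p = 0.00281 and 0.00219). In both, the heterozygotes overlapped the wild types. The long noncoding RNA CR44948 had 0.800, 0.227 and 2.65 FPKM in the heterozygotes, 177, 164 and 178 FPKM in the homozygotes and 1.88, 5.51 and 0.150 FPKM in the wild types. It had the smallest adjusted p on FPKM (limma, 0.000304, at 1.40% of the midpoint), a call that held without each library, whereas its log2 call held without only 2 of the 9. Further recessive loci outside the rule for named genes included the Rap regulator RapGAP1 (35.7% of the midpoint), the calcium-binding protein Swip-1 (34.98%) and the cytoplasmic actin Act42A (56.1%). These were not chosen by a set rule, and whether their calls hold without single libraries is not given here.

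The bomanins and daishos are short secreted peptides that the Toll pathway induces during infection. Of 12 tested loci, 11 were higher in homozygotes on log2, where 12.3% of all loci were. IM1, CG16836, IM14, IM23, CG15067, IM4 and CG5778 passed the filter of 1 FPKM in at least 3 libraries only through the homozygotes. Counts of higher homozygotes and of heterozygotes below the midpoint in this list are therefore partly set by the filter. On log2, 9 of the 12 were called below the midpoint, all as recessive, where 0.873% of all loci were below. Of these 9 calls, 0 were kept without heterozygote 1, 1 (IM14) without heterozygote 2 and 4 without heterozygote 3. In all 12 the heterozygotes were below every homozygote and overlapped the wild types. The share of all loci tested with that order was not counted, so this only describes the list. The median heterozygote was 1.19% of the arithmetic midpoint, against 98.6% over all loci tested. IM3 (BomS3) had 4.21, 1.42 and 4.39 FPKM in the heterozygotes, 607, 1046 and 464 FPKM in the homozygotes and 10.7, 2.84 and 4.03 FPKM in the wild types. Its log2 difference from the midpoint was −3.97 (SE 0.44, limma adjusted p = 0.00885), lost without heterozygote 1 or 2. IM14 (Dso2) had 0.713, 1.23 and 0 FPKM in the heterozygotes, 280, 180 and 139 FPKM in the homozygotes and 2.22, 0.699 and 0.420 FPKM in the wild types. In both peptides each heterozygote lay within or below the wild-type range. The IM14 difference of −3.64 (SE 0.36, limma adjusted p = 0.00667) was lost without heterozygote 1.

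On FPKM, IM4 (Dso1) was the 1 member called (0.302% of the midpoint, limma adjusted p = 0.0292, lost without any heterozygote or wild type). The spread among homozygotes was wide on that scale: the IM3 difference was −352 FPKM with an SE of 110 (limma adjusted p = 0.334). The 3 members not called on log2 were CG15068, CG18107 and CG5778, at 9.78%, 11.9% and 15.6% of the midpoint; CG18107 and CG5778 are outside the rule for named genes. CG15068 was the most abundant member, with 31.0, 50.5 and 82.2 FPKM in the heterozygotes, 271, 2089 and 637 FPKM in the homozygotes and 122, 27.2 and 199 FPKM in the wild types. Its heterozygotes overlapped the wild types, which varied among themselves more than the heterozygotes did.

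No antimicrobial peptide locus of the 15 tested was called off the midpoint on either scale by limma, where 1.00% of all loci were called on log2. At an unadjusted p under 0.05 on log2, 5 of the 15 lay below it, against 6.43% of all loci. None of the 15 was called between homozygote and wild type. All 15 heterozygote means were below the log2 midpoint, where the median difference over all loci tested was 0.0185. The summed FPKM was 175, 192 and 148 in the heterozygotes, 857, 2633 and 1046 in the homozygotes and 1348, 138 and 2462 in the wild types. Wild type 2 thus lay with the heterozygotes, and wild types 1 and 3 with the homozygotes. Drs (drosomycin, an antifungal peptide) had 10.5, 21.5 and 47.3 FPKM in the heterozygotes, 439, 1526 and 881 FPKM in the homozygotes and 534, 13.6 and 197 FPKM in the wild types (log2 difference from the midpoint −3.75, SE 1.08, limma adjusted p = 0.240).

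**Figure D3:**
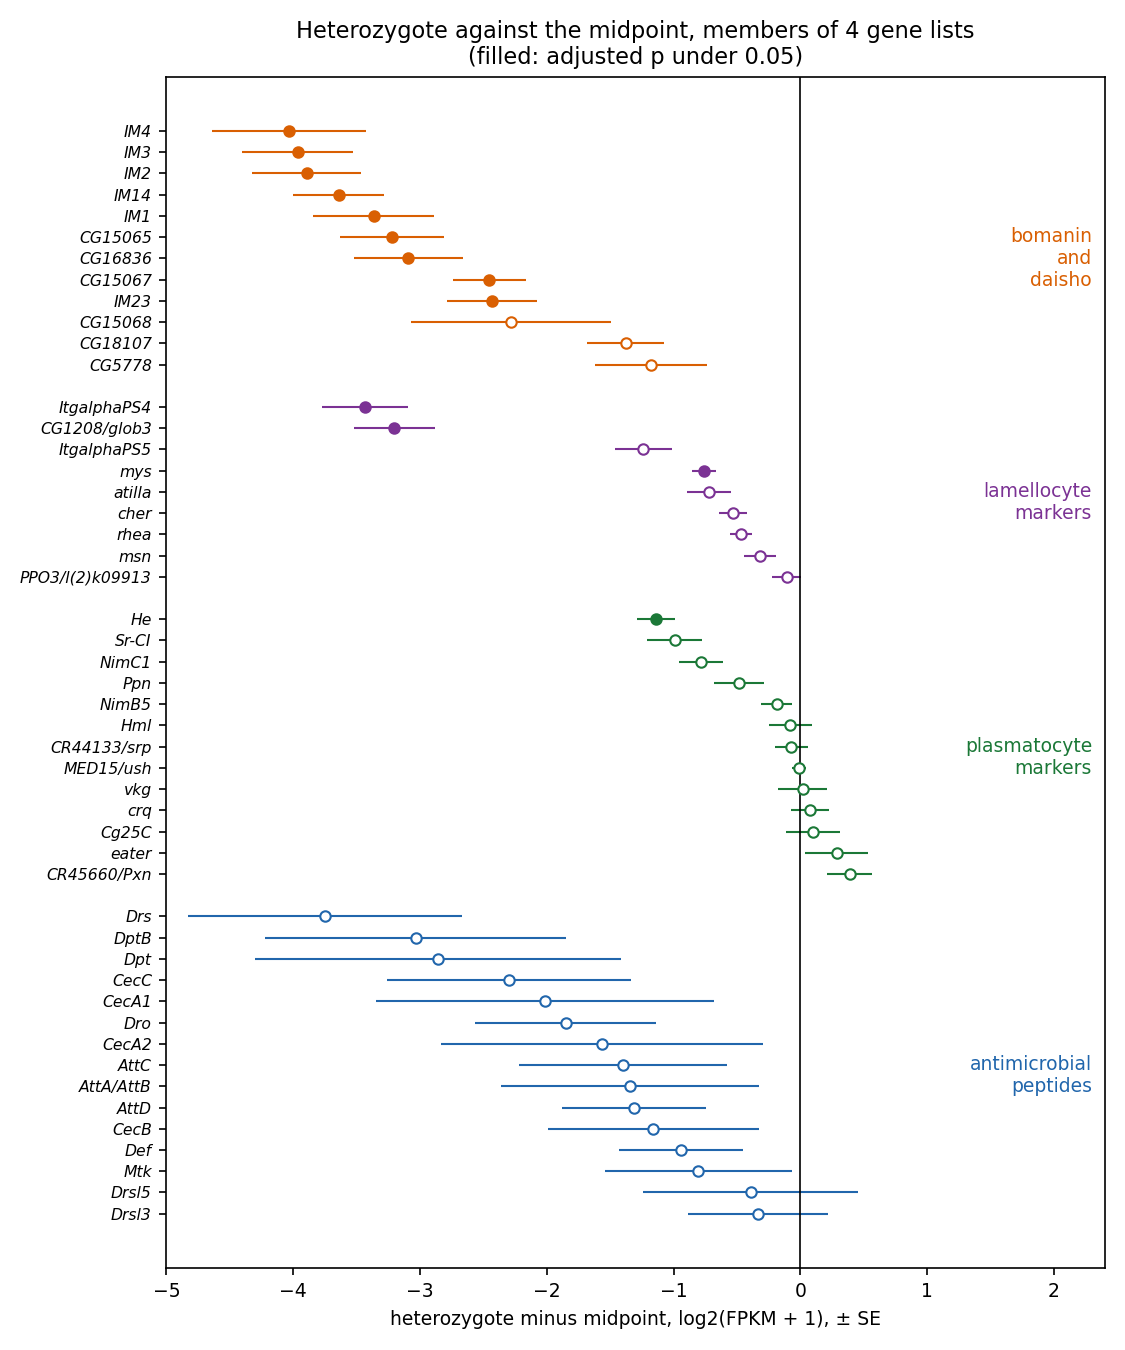
Heterozygote minus midpoint on log2(FPKM + 1), with its SE, for the tested members of 4 gene lists; filled points have an adjusted p under 0.05. Of the 12 bomanin and daisho loci 9 are filled and all lie below 0, whereas the 15 antimicrobial peptides have wider errors and none is filled.

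Of 9 lamellocyte markers, 7 were higher in homozygotes on log2, where 12.3% of all loci were. ItgalphaPS4, CG1208/glob3 and mys were called below the midpoint on both scales, and atilla on FPKM. Over all loci 0.873% were below it on log2 and 0.404% on FPKM. Of the 3 log2 calls 0 were kept without heterozygote 1 or 2, and of the 4 FPKM calls 1 (CG1208/glob3) was kept without heterozygote 2 or 3 and 2 without heterozygote 1, wild type 1 or wild type 3. Atilla, a surface protein used to mark lamellocytes, had 61.9, 59.1 and 62.5 FPKM in the heterozygotes, 217, 193 and 199 FPKM in the homozygotes and 41.5, 72.2 and 42.9 FPKM in the wild types. The heterozygotes lay within the wild-type range, at 47.9% of the midpoint (limma adjusted p = 0.0358 on FPKM and 0.135 on log2); the FPKM call was lost without any heterozygote, wild type 1 or wild type 3. In all 9 the heterozygotes were below every homozygote, and in 7 they overlapped the wild types. The share of all loci tested with that order was not counted. PPO3/l(2)k09913, which includes a lamellocyte phenoloxidase, was at 88.6%, with the heterozygotes above every wild type. The cher heterozygotes (193, 159 and 156 FPKM) were below every wild type (234, 207 and 253 FPKM). Homozygote and wild type were not called apart at cher (limma adjusted p = 0.374 on log2). The summed level of the list was 524, 455 and 474 FPKM in the heterozygotes, 1371, 1322 and 1209 FPKM in the homozygotes and 508, 534 and 523 FPKM in the wild types.

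Of 13 plasmatocyte markers, He (Hemese, a surface glycoprotein of blood cells) was called, with 73.4, 107 and 101 FPKM in the heterozygotes, 444, 429 and 341 FPKM in the homozygotes and 95.4, 117.5 and 103 FPKM in the wild types. Its heterozygotes overlapped the wild types, at 36.8% of the midpoint (limma adjusted p = 0.0171 on log2 and 0.0384 on FPKM); the log2 call was lost without any heterozygote or wild type 3, and the FPKM call was kept only without homozygote 1 or 3. Over all loci 0.873% were called below the midpoint on log2 and 0.404% on FPKM. The plasmatocyte list did not move one way: 8 of its 13 heterozygote means were below the log2 midpoint, where the median over the list was 94.2% of the arithmetic midpoint. The phagocytic receptor NimC1 was at 53.6%, the plasmatocyte gene Hml at 93.2%, the receptor eater at 115.3% and the merged locus CR45660/Pxn, which includes peroxidasin, at 126%. None of these 4 was called off the midpoint, and they are outside the rule for named genes. Of 19 Toll pathway loci, the receptor Tl was called, with 13.1, 12.7 and 13.3 FPKM in the heterozygotes, 25.6, 25.1 and 22.8 FPKM in the homozygotes and 12.7, 13.4 and 15.03 FPKM in the wild types. It was at 68.1% of the midpoint (limma adjusted p = 0.0297 on log2), a call lost without any library but wild type 1. Over all loci 0.873% were called below the midpoint on log2. At an unadjusted p under 0.05 on log2, 6 of the 19 Toll pathway loci lay below it and 1 above, against 6.43% and 2.70% of all loci. No locus of the crystal cell (5 tested), Turandot (4), JNK (15), JAK/STAT (10) or Imd (18) lists was called off the midpoint by limma on either scale; 0, 2, 6, 4 and 5 of them lay below it at an unadjusted p under 0.05 on log2, against 6.43% of all loci.

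Recessive falls were fewer. Of the 8 on log2, the heterozygotes overlapped the wild types at 2, lay wholly below them at 4 and wholly above them at 2. The shares of all loci tested with these orders were not counted. Heterozygote and wild type were called apart at 2 of the 8, where 0.211% of all loci were. Of the 8 on log2 and 3 on FPKM, the largest difference in FPKM was that of Jon99Fi, a digestive serine protease of the midgut. It had 3378, 2944 and 3191 FPKM in the heterozygotes, 422, 206 and 608 FPKM in the homozygotes and 1983, 1493 and 1412 FPKM in the wild types. All heterozygotes were above all wild types, which were above all homozygotes. The heterozygote mean was 311% of the midpoint (limma adjusted p = 0.00623 on FPKM, lost without heterozygote 3, and 0.0297 on log2, kept only without homozygote 2 or 3), yet heterozygote and wild type were not called apart (0.0741 on FPKM and 0.760 on log2). Of 40 loci of gut proteases, lysozymes, amylases and maltases, Jon99Fi was the 1 called. Over all loci 0.129% were called above the midpoint on log2 and 0.0643% on FPKM. At an unadjusted p under 0.05 on log2, 11 of the 40 were above it, against 2.70% of all loci. The summed level of that list was 115722, 90047 and 80698 FPKM in the heterozygotes, 83624, 43045 and 78928 FPKM in the homozygotes and 47930, 90854 and 51816 FPKM in the wild types, and its part in the Jon99Fi result was not tested.

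CG12262 (Mcad, an acyl-CoA dehydrogenase of mitochondrial fatty acid oxidation) had 379, 319 and 378 FPKM in the heterozygotes, 158, 150 and 167 FPKM in the homozygotes and 324, 278 and 313 FPKM in the wild types. Heterozygotes and wild types overlapped, at 155% of the midpoint for the heterozygote mean (limma adjusted p = 0.02 on log2 and 0.0483 on FPKM); the FPKM call was lost without each of the 9 libraries in turn and the log2 call without any heterozygote, wild type 3 or homozygote 3. CG12428 (CROT, carnitine octanoyltransferase) had 35.3, 28.6 and 30.7 FPKM in the heterozygotes, 16.9, 14.996 and 17.1 FPKM in the homozygotes and 22.2, 23.3 and 22.6 FPKM in the wild types. Its heterozygotes were above every other library, at 162% of the midpoint (limma adjusted p = 0.0128 on log2). It was sorted as recessive on log2, where homozygote and wild type were called apart (limma adjusted p = 0.0182). CG32364 (tut, a regulator of the male germ line) had 7.30, 6.58 and 7.12 FPKM in the heterozygotes, 1.59, 1.20 and 1.40 FPKM in the homozygotes and 7.44, 8.74 and 8.20 FPKM in the wild types. The heterozygotes lay just under the wild types, at position 0.10 (−0.02 to 0.21) on log2 (limma adjusted p = 0.00885). The log2 calls of CG12428 and CG32364 were lost without any heterozygote.

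CG34026, on the X chromosome, lay on opposite sides of the midpoint on the 2 scales. It had 64.0, 65.3 and 51.7 FPKM in the heterozygotes, 0.134, 0 and 0 FPKM in the homozygotes and 198, 326 and 229 FPKM in the wild types. The 3 genotypes did not overlap. On log2 the heterozygote lay 1.93 above the midpoint (SE 0.16, limma adjusted p = 0.00281, held without each library), at position 0.26 (0.21 to 0.30). In amount it was at 48.0% of the arithmetic midpoint, on the homozygote side of it at position 0.76 (0.53 to 1.03; limma adjusted p = 0.468). CG34026 was therefore recessive by the log2 sort and unsorted on FPKM.

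At a few loci the heterozygote differed from the midpoint where homozygote and wild type were not called apart. On log2 these were CG43221/CG43645, Tep1 (a thioester-containing immune protein) and CG13069; on FPKM they were CG13069, CG12428 and CG12115. CG43221/CG43645 had 3.92, 1.83 and 1.55 FPKM in the heterozygotes, 31.1, 19.1 and 19.7 FPKM in the homozygotes and 17.3, 38.3 and 15.7 FPKM in the wild types. All 3 heterozygotes were below every other library, and this was the 1 locus on log2 called against both homozygote and wild type (limma adjusted p = 0.00452 and 0.0490). The difference from the midpoint was −2.83 (SE 0.34, limma adjusted p = 0.0115), lost without heterozygote 2 or 3. Tep1 was at 44.2% of the midpoint, a call (limma adjusted p = 0.0482) lost without each of the 9 libraries in turn. CG13069, outside the rule for named genes, was at 253% on means of 3.67 ± 0.327 FPKM in heterozygotes, 1.08 ± 0.322 FPKM in homozygotes and 1.82 ± 0.370 FPKM in wild types. CG12115 had 166, 172 and 164 FPKM in the heterozygotes, 104, 66.4 and 100 FPKM in the homozygotes and 94.7, 106 and 113 FPKM in the wild types, at 172% of the midpoint (limma adjusted p = 0.0383 on FPKM), lost without any heterozygote or wild type. On log2 the group held 9 loci without wild type 2, 1 without heterozygote 1 or homozygote 3 and 0 without heterozygote 2 or 3. On FPKM it held 5 without homozygote 1, 1 without heterozygote 1 and 0 without heterozygote 2 or 3 or wild type 1 or 3.

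Since most loci were unsorted, positions are given as a description over all loci called between homozygote and wild type with a log2 difference of at least 1, that is 2-fold on FPKM + 1. Among the 397 higher in homozygotes the median position was 0.18 on log2 and 0.0953 on FPKM, and the heterozygote was at a median of 59.3% of the arithmetic midpoint. Their intervals lay wholly below 0.5 for 199 loci and above it for 13 on log2, and held both 0 and 0.5 for 117. Among the 696 lower in homozygotes the median position was 0.32 on log2 and 0.486 on FPKM, at 102% of the midpoint. Their log2 intervals lay below 0.5 for 45 loci and above it for 8, and held both 0 and 0.5 for 581, so that for most falls a heterozygote at the wild type and one at the midpoint were not separable.

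**Figure D4:**
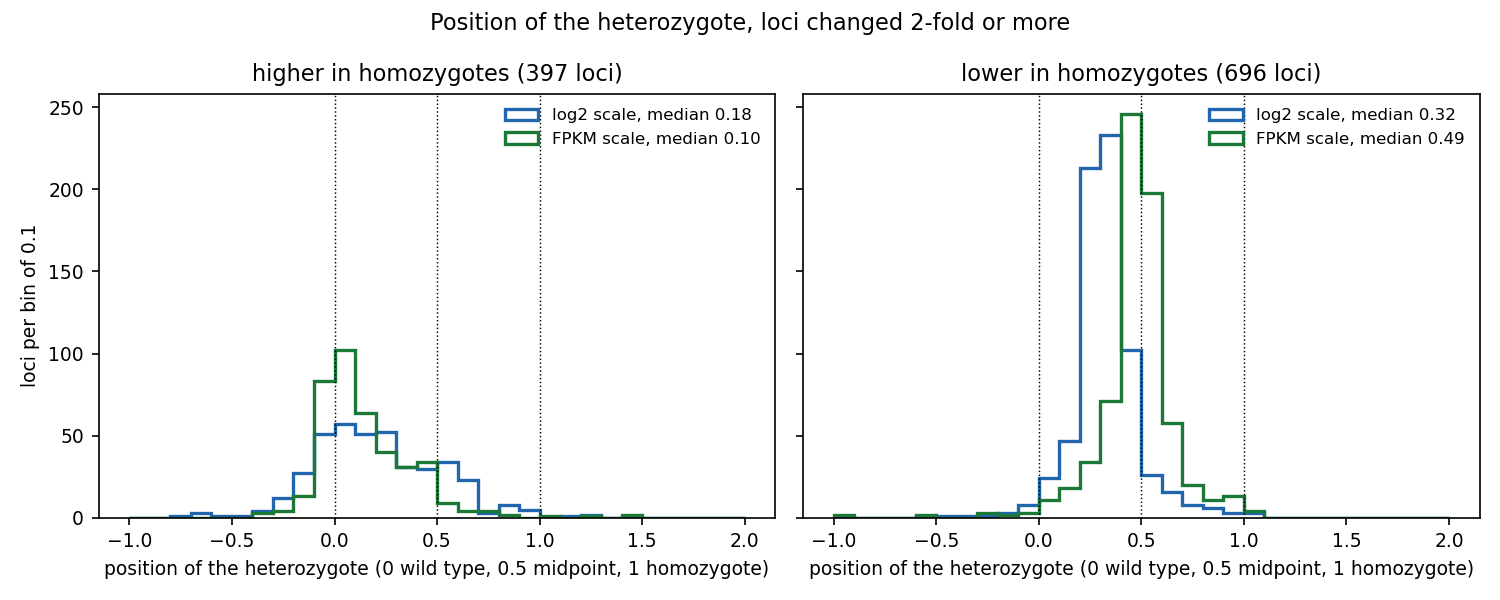
Number of loci by the position of the heterozygote, for loci with a log2 difference of at least 1 between homozygote and wild type; dotted lines mark the wild type, the midpoint and the homozygote, and positions beyond the axis are counted in the end bins. Rises (397 loci) gather near the wild type, with medians of 0.18 on log2 and 0.0953 on FPKM, while falls (696 loci) have medians of 0.32 and 0.486.

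The medians of rises were steadier than those of falls. Taking each heterozygote library alone, the median FPKM position of the rises was 0.157, 0.0458 and 0.0664 in heterozygote 1, 2 and 3, and that of the falls was 0.778, 0.386 and 0.316. Without wild type 1 the falls moved to 0.117 on FPKM and 0.11 on log2, and without heterozygote 1 to 0.340 and 0.17. Wild type 1 had the highest and heterozygote 1 the lowest summed testis list of their genotypes, as given above. Of the 696 falls 18 were testis list loci, too few for their removal to move a median much (0.487 on FPKM without them). The part of the tissue differences in these positions was not tested. The median of the rises moved to 0.0503 without heterozygote 1 and to 0.0610 without wild type 3 on FPKM, and otherwise stayed between 0.0838 and 0.123.

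**Figure D5:**
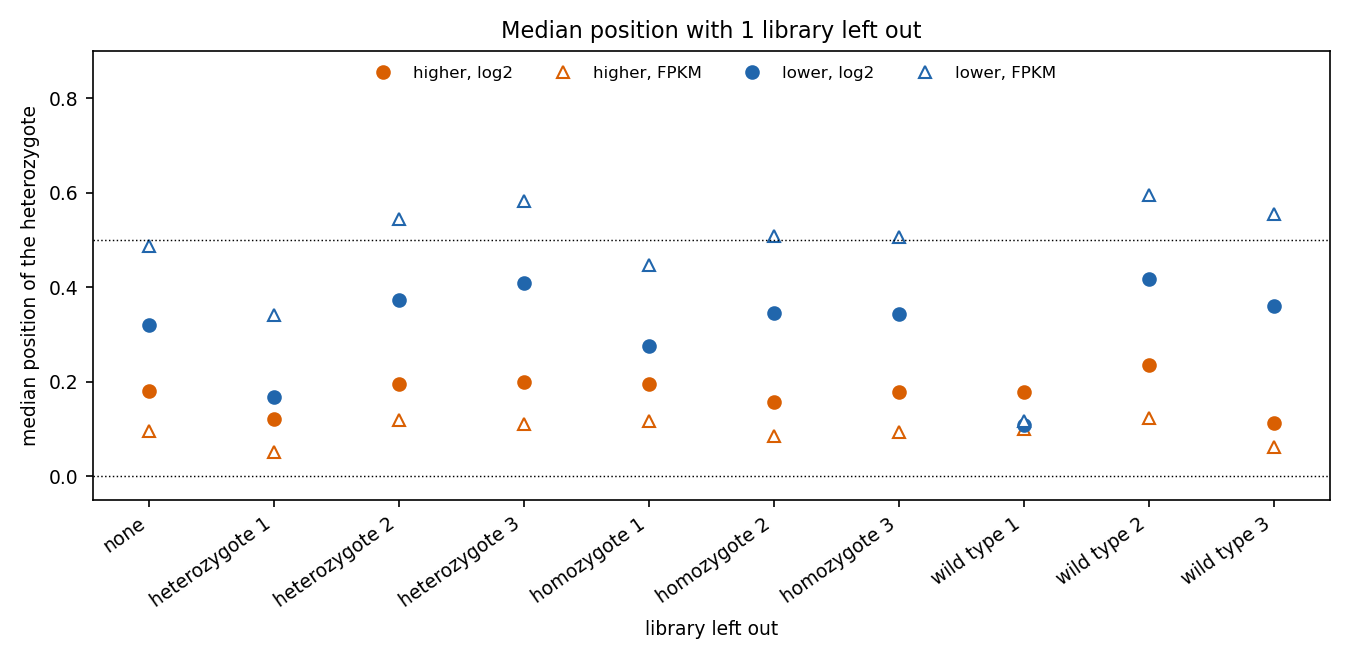
Median position of the heterozygote for the 397 rises and 696 falls, with no library or 1 library left out, on log2 (filled circles) and FPKM (open triangles). Falls drop to 0.117 on FPKM without wild type 1, while rises stay between 0.0503 and 0.123.

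Many lists held changed loci with the heterozygote not called off the midpoint. Of 91 cytoplasmic ribosomal protein loci, 81 were higher and 1 lower in homozygotes on log2, where 12.3% and 9.67% of all loci were. None was called off the midpoint by limma on either scale (2 below at an unadjusted p under 0.05 on log2, against 6.43% of all loci). The median heterozygote was at 93.7% of the arithmetic midpoint. The median position of their called loci was 0.41 on log2 and 0.354 on FPKM, against 0.28 and 0.302 over all called loci. The abundant member RpLP1 averaged 4197 ± 296 FPKM in heterozygotes, 5337 ± 264 FPKM in homozygotes and 3455 ± 409 FPKM in wild types (SD, n = 3 each), at log2 position 0.45 with an interval of −0.16 to 1.01. Of 40 testis loci, 19 were lower in homozygotes on log2, where 9.67% of all loci were. On FPKM 3 of the 40 were called between homozygote and wild type, where 13.2% of all loci were. None of the 40 was called off the midpoint by limma on either scale (1 above at an unadjusted p under 0.05 on log2, against 2.70% of all loci). Of 11 glue protein loci, 1 was higher and 2 were lower in homozygotes on log2, where 12.3% and 9.67% of all loci were. On FPKM 7 of the 11 were called between homozygote and wild type, where 13.2% of all loci were. None of the 11 was called off the midpoint by limma or at an unadjusted p under 0.05 on log2. Their summed level was 58060, 62636 and 54532 FPKM in the heterozygotes, 6401, 25749 and 29354 FPKM in the homozygotes and 56264, 63254 and 81874 FPKM in the wild types, so the heterozygotes lay with the wild types in sum. Sgs7 made up most of the heterozygote sum (mean 36125 FPKM). At 7 of the 11 loci the heterozygotes overlapped the wild types. The share of all loci tested with such an overlap was not counted, so this only describes the list. The heterozygotes were below every wild type at CG7587 (963, 970 and 685 against 2228, 2838 and 3782 FPKM) and ng2, and above every wild type at ng1 and ng3.

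Of 33 glutathione transferase loci, 7 were higher and 4 lower in homozygotes on log2, where 12.3% and 9.67% of all loci were. On that scale GstO3 and GstT3 were called above the midpoint and GstD2 (of the delta class) below it, where 0.129% and 0.873% of all loci were. GstO3 and GstD2 were sorted as recessive and GstT3 as dominant. GstD2 had 13.5, 10.3 and 10.3 FPKM in the heterozygotes, 77.0, 79.5 and 122 FPKM in the homozygotes and 13.4, 12.6 and 6.84 FPKM in the wild types. The heterozygotes overlapped the wild types, at 21.9% of the midpoint (limma adjusted p = 0.0394 on log2), a call lost without any library but wild type 3. Of 22 odorant-binding protein loci, Obp56e was called on FPKM, at 244% of the midpoint (limma adjusted p = 0.0485), where 0.0643% of all loci were called above it. That call was kept only without wild type 2, and on log2 Obp56e was not called (limma adjusted p = 0.0830). No locus of the muscle, glycolysis, V-ATPase, respiratory chain, heat shock, ecdysteroid, cuticle or cytochrome P450 lists was called off the midpoint by limma on either scale. At an unadjusted p under 0.05 on log2, the cuticle list (64 tested) had 11 above and 1 below and the cytochrome P450 list (69 tested) 5 above and 1 below, against 2.70% of all loci above and 6.43% below.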

How the data were processed

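Gene expression in 9 libraries of whole wandering larvae of the third instar was deposited as FPKM per locus. Per the labels' protocols, RNA was extracted with the Qiagen RNeasy kit and sequenced strand-specifically as 75-base paired reads. HISAT2 2.1.0, Cufflinks 2.2.1, limma and the build dm6 are listed in the submitters' processing notes; which did what, and on which annotation, is not given in the sources used here. How FPKM was normalised beyond its definition is not given either, and depth in reads is unknown.

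The deposited table held 50244 lines for 15809 loci, of which 818 carry several merged gene names that cannot be separated; 1 value per locus was used. Current names and arms came from the release 115 annotation (16201 of 16414 names matched); coordinates printed are those of the files. Groups were taken from the sample labels.

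Loci with at least 1 FPKM in at least 3 libraries (10887) were fitted over all 9 libraries with limma 3.58.1 in R 4.3.3, on log2(FPKM + 1) and on FPKM divided by the locus mean, with Benjamini-Hochberg adjustment over all of them. The contrast was heterozygote minus the mean of homozygote and wild type; the intervals of positions are Fieller intervals at 95%. The fit was tested on simulated data. Tables and figures were made with Python 3.11.15, pandas 2.3.3 and matplotlib 3.10.9.

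Named genes were Atg6, w and loci overlapping or next to Atg6; on each scale the 10 largest differences from the midpoint in each direction among called loci whose highest genotype mean reached 5 FPKM; the 5 largest per direction in each class and among loci whose class differs between scales; and, of each list, the called members and the 2 most abundant. The comparison, the gene lists and the rule were chosen with earlier results of these data known. Alternatives were other pseudocounts, no filter, a stricter threshold, other scalings, a replicate block and leaving out each library.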

Additional observations from a re-analysis of the deposited data

How the results depend on the processing

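Counts of loci off the midpoint depended on the threshold and on single libraries. At an adjusted p under 0.01, limma called 28 loci on log2 and 9 on FPKM, and the sort gave 27 recessive, 3 dose-proportional, 1 dominant and 0 heterozygote-type loci on log2, and 8, 0, 0 and 1 on FPKM. With no filter the FPKM calls were 32, the FPKM recessive loci 28 and the log2 dominant loci 9. With a pseudocount of 5 the log2 dominant loci were 2. Quantile normalisation gave 5 heterozygote-type loci on log2 and 30 recessive and 2 dominant loci on FPKM. Leaving out 1 library at a time gave 13 to 101 calls on log2 and 4 to 116 on FPKM. The log2 sort then ranged over 11 to 94 recessive, 3 to 9 dose-proportional, 0 to 5 dominant and 0 to 9 heterozygote-type loci, and the FPKM sort over 4 to 110, 0 to 11, 0 to 1 and 0 to 5. The median position of rises ranged over 0.11 to 0.23 on log2 and 0.0503 to 0.123 on FPKM, and that of falls over 0.11 to 0.42 and 0.117 to 0.595; the median positions and the counts of bomanin, daisho and lamellocyte calls without 1 library were chosen after seeing the data.

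With the replicate number as a replicate block, 15 loci were called on log2 (15 recessive, 2 dose-proportional, 0 dominant and 0 heterozygote-type) and 6 on FPKM (6, 0, 0 and 0). Deviations of same-numbered libraries correlated at −0.65 to 0.33, and those of differently numbered libraries at −0.48 to 0.67. Deviations within a genotype are not independent of each other, so these values cannot show whether same-numbered libraries shared a batch. The labels do not say whether they did. Depth in reads is unknown and sets no limit that could be computed.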
